A study of Mus musculus with 132 samples.

Results

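The genes for the proteins of the cytoplasmic ribosome were followed here through the differentiation of mouse embryonic stem cells into blood progenitors. Rows of the count table were taken where the symbol begins with Rpl or Rps and a digit, or is Rpsa, Rplp0, Rplp1 or Rplp2, and pseudogene copies, the S6 kinases and Rps19bp1 were dropped (19 rows). This left 89 of 25146 rows, 35 for the small (40S) subunit and 54 for the large (60S) subunit. Of these, 77 are the single genes of a protein and 12 are further copies or paralogs, such as Rpl22l1 and Rpl7l1. The choice used symbols and no measured value.

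RNA was sequenced from E14-TG2a, a mouse embryonic stem cell line, and its derivatives, in 23 libraries. The wild-type groups were undifferentiated cells of the E14 line at day 0 (2 technical replicates of 1 culture), Flk1+ mesoderm sorted at day 4 (clones C8.1, C6.1 and B9.3) and CD41+ hematopoietic progenitor cells (HPCs) at day 7 (the same 3 clones, with B9.3 in 2 libraries). In the P1-CTCF-KO lines, the CTCF motif beside the distal Runx1 promoter P1 was deleted on both alleles by CRISPR, and 3 clones (E7.1, E7.2 and E9.1) gave 1 mesoderm and 1 HPC library each. In the P2-CTCF-KO lines, the CTCF motif beside the proximal promoter P2 was deleted in the same way, and 3 clones (D2.1, D10.1 and E9.1) gave 3 mesoderm and 5 HPC libraries, with D2.1 and D10.1 each in 2 HPC libraries. Counts over genes cannot check the deletion of a motif. Libraries of a group are clones or repeats of clones, so p-values measure the spread between these libraries.

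Each ribosome carries a single copy of most of its proteins, so cells keep the synthesis of the whole set in balance. Ribosomal protein mRNAs are among the most abundant in growing cells, their translation is controlled through a pyrimidine tract at the first base of the mRNA, and many of the genes carry a small nucleolar RNA (snoRNA) in an intron. Loss of a single copy of several of these genes causes Diamond-Blackfan anemia, in which red cell production fails. The RNA measured here was the poly(A)-minus fraction, which leaves out polyadenylated mRNA and is used as a view of nascent transcripts, and reads were counted over exons and introns together. The values below therefore are not levels of the mature mRNA.

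Total counts per library ran from 7805102 to 24406998. Ribosomal RNA and entries that span several loci took 68.1% to 91% of them, which left 878966 to 7748567 counts per library, here called the remaining counts. The ribosomal protein genes held 59615 and 30925 counts in the undifferentiated libraries and only 452 to 4200 in the other 21. A further 8 entries dominated the remaining counts, among them Cmss1 with up to 49.1% and Cdk8 with up to 20.5% of them in a library. Pluripotency markers summed to 1101.9 to 1138.9 CPM of the remaining counts in undifferentiated cells and 9.72 to 24.7 in wild-type mesoderm. Mesoderm markers summed to 204.3 to 392.1 in wild-type mesoderm, and hematopoietic progenitor markers to 1075.4 to 1859.2 in wild-type HPCs, where erythroid markers summed to 617.4 to 1394.2.

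As a share of the remaining counts, the 89 genes were highest in undifferentiated cells. The undifferentiated libraries had 0.769% and 0.636%. Wild-type mesoderm had 0.109% in C8.1, 0.096% in B9.3 and 0.0678% in C6.1, and wild-type HPCs 0.0689%, 0.116%, 0.0897% and 0.0692%. Mesoderm and undifferentiated libraries did not overlap, with a ratio of 0.129 between their means, but 3 against 2 libraries cannot give a p below 0.2, which is the value obtained (exact 2-sided permutation test, adjusted p = 0.457 over 8 comparisons). The 2 undifferentiated libraries are technical replicates of 1 culture, so this p takes technical spread as the spread of that stage. Wild-type HPCs and mesoderm overlapped, at 0.086% ± 0.0224 (SD, n = 4) and 0.091% ± 0.0211 (SD, n = 3). The undifferentiated libraries were also prepared differently, with ribosomal RNA depletion named for them, so stage and preparation cannot be told apart in the first of these comparisons. In these bulk samples, fewer cells of a type and less RNA per cell cannot be told apart either.

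In the knockouts, the share was 0.115% (E7.1), 0.183% (E7.2) and 0.105% (E9.1) in P1-CTCF-KO mesoderm and 0.047%, 0.0885% and 0.0699% in P1-CTCF-KO HPCs. These groups did not overlap, with a ratio of HPC to mesoderm of 0.51 (exact permutation p = 0.1, the smallest that 3 against 3 allows, adjusted p = 0.457). P2-CTCF-KO mesoderm had 0.128% (D10.1), 0.0945% (D2.1) and 0.147% (E9.1), and the 5 P2-CTCF-KO HPC libraries ran from 0.0699% to 0.141% with a median of 0.11%. These groups overlapped. None of the 8 comparisons of the share passed after adjustment.

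The denominator mattered for the share. With the 8 dominant entries taken out as well, an alternative chosen after seeing the data, wild-type mesoderm had 0.343% ± 0.07 (SD, n = 3) and P2-CTCF-KO mesoderm 0.509% ± 0.0316 (SD, n = 3), and the groups no longer overlapped (ratio 1.49, exact permutation p = 0.1, the smallest possible, adjusted p = 0.229). The ratio of HPC to mesoderm became 0.669 in wild-type (exact permutation p = 0.114), 0.542 in P1-CTCF-KO (p = 0.1) and 0.595 in P2-CTCF-KO (p = 0.0357, the smallest that 5 against 3 allows), each with an adjusted p of 0.229. HPC libraries were lower than all mesoderm libraries of the same genotype in both knockouts, and overlapped them in wild-type. The 5 P2-CTCF-KO and 4 wild-type HPC libraries each come from 3 clones, the same as in mesoderm. These tests took each library as a sample and did not use the pairing. With 3 clones against 3, no p below 0.1 is possible.

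**Figure D1:**
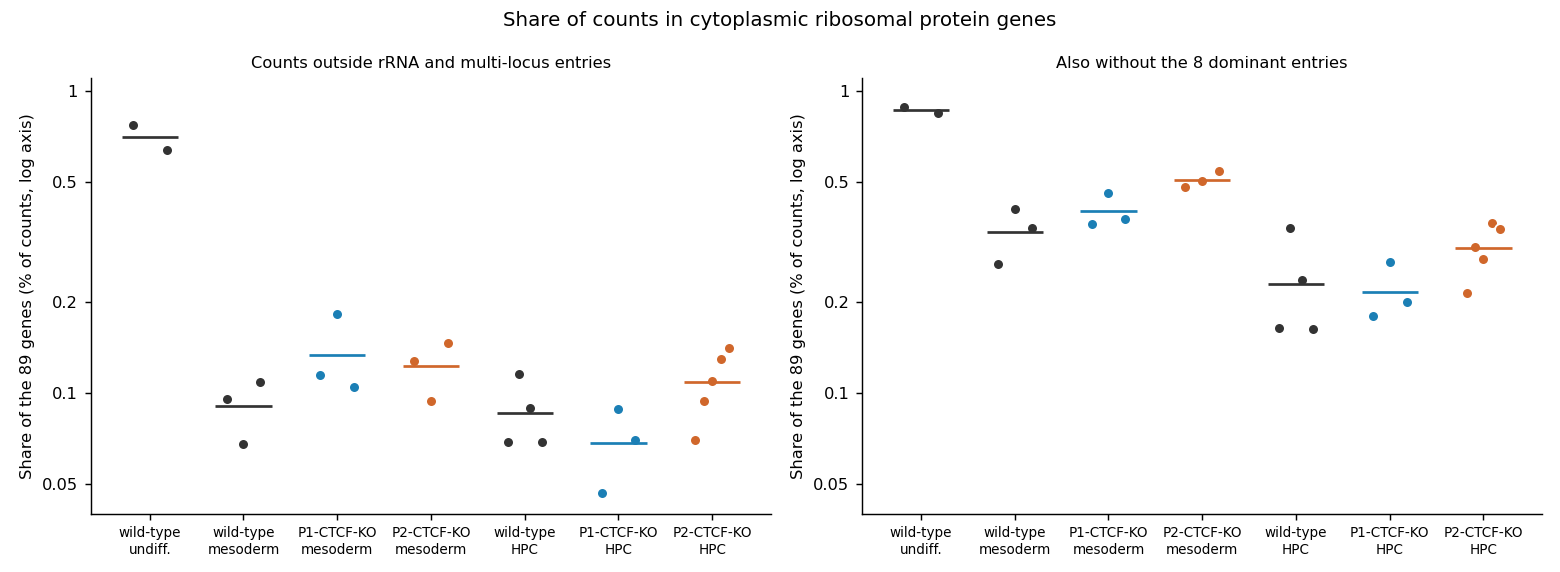
Share of the 89 ribosomal protein genes in each of the 23 libraries (points) with group means (lines), on a log axis in percent of counts, for 2 denominators. The undifferentiated libraries lie at 0.636% and 0.769% on the left, above the 21 others at 0.047% to 0.183%, and the P2-CTCF-KO mesoderm libraries lie above the wild-type mesoderm libraries on the right.

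The balance between the subunits varied little. Genes of the 40S subunit held between 39.6% and 43.8% of the ribosomal protein counts in all 23 libraries. Wild-type group means were 41.7% ± 0.641 in undifferentiated cells (SD over 2 technical replicates of 1 culture), 41.7% ± 0.695 (SD, n = 3) in mesoderm and 42.4% ± 1.13 (SD, n = 4) in HPCs. The 95% Wilson binomial interval of single libraries covers counting error only. It reached from 38.7% to 47.7% in the library with the fewest counts (P1-CTCF-KO HPC E7.1, 452 counts). No comparison of the 40S share passed (8 exact permutation tests, lowest adjusted p = 0.457). The 10 genes with most counts in a group held 36.6% to 40.8% of the ribosomal protein counts, and Rpl4 led in all 7 groups.

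Levels were compared between genes per kilobase of the counted span, as CPM of the remaining counts. In wild-type mesoderm, Rpl8, which lies by the peptidyl transferase centre, had 12.5 to 18.3 (mean 16.0 ± 3.06, SD, n = 3), and Rpl4, which lines the exit tunnel, had 12.8 to 17.4 (15.8 ± 2.55). Their ranges overlapped. Rpl13a followed with 9.12 ± 3.40 and a highest library of 12.2, below every library of Rpl4. Rps3, which sits at the mRNA entry channel, had 7.73 ± 2.21 and overlapped Rpl13a. In wild-type HPCs the order was led by Rpl4 with 13.3 to 17.4 (15.4 ± 2.25, SD, n = 4) and Rpl8 with 10.8 to 17.8 (14.3 ± 3.43). Rplp1, an acidic protein of the stalk that recruits elongation factors, had 9.42 ± 5.35 and Rpl13a 7.05 ± 1.19, with overlapping ranges. At the low end, Rps23rg1, Rpl10l, Rpl3l and Rpl39l were at 0 counts in every wild-type mesoderm and HPC library. The lowest of the others was Rps29 with 0.657 ± 0.538 in mesoderm and Rpl29 with 0.621 ± 0.518 in HPCs.

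The introns of these genes held snoRNAs, whose reads the counts of the host genes can include. The annotation used here (GENCODE vM1 exons) gave exons for 82 of the genes, and exons filled 13% to 100% of the counted span, with a median of 41.3%. The same annotation placed 58 snoRNA genes inside 30 ribosomal protein genes. The count table had its own rows for 30 snoRNAs within 21 of the 89 genes. No snoRNA sum exceeded the count of its host in any library, which leaves room for the snoRNA reads in the host counts. For another overlapping pair of rows, Rps27 and Rps27rt, the counts were the same in every library, so reads there were counted in both rows. For the snoRNA rows this was not tested directly, and percentages below give the snoRNA rows relative to the row of the host. Rpl13a, a 60S protein that also has a role in silencing inflammatory mRNAs, had the highest value: its 4 snoRNA rows came to 59.6% of the size of its own 5166 counts over the 23 libraries. In Rps12, a protein of the beak of the 40S subunit, the value was 21.4%, in Rpl23a 20.6%, in Rpl27a 15.7%, in Rpl12 13.1% and in Rplp2 13.1%.

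The 4 snoRNAs of Rpl13a are shown because their rows were the largest relative to the row of their host. They are box C/D snoRNAs, which guide the 2′-O-methylation of ribosomal RNA, and all lie on the minus strand of chromosome 7 (mm9). Capitals mark the first TGATG, as in a C box, and the last CTGA, as in a D box.
Snord33 (chr7:52382233-52382315): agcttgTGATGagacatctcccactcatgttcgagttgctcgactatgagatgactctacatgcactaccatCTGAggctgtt
Snord34 (chr7:52381972-52382038): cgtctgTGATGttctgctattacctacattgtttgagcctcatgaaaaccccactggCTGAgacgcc
Snord32a (chr7:52382752-52382833): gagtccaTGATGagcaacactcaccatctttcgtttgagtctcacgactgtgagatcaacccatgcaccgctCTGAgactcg
Snord35a (chr7:52381716-52381805): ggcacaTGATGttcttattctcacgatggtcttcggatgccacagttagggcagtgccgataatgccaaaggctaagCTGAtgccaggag
Snord33 had 1542 counts over all libraries (29.8% of the count of Rpl13a), Snord34 had 1089 (21.1%), Snord32a 320 (6.19%) and Snord35a 130 (2.52%). The snoRNA rows of Rpl13a came to 66.5% of 4050 counts in the undifferentiated libraries, 46.9% of 177 in wild-type mesoderm and 32% of 100 in wild-type HPCs. Those of Rps12 came to 21.8%, 29.1% and 27.6% in the same groups, on 1982, 55 and 29 counts.

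**Figure D2:**
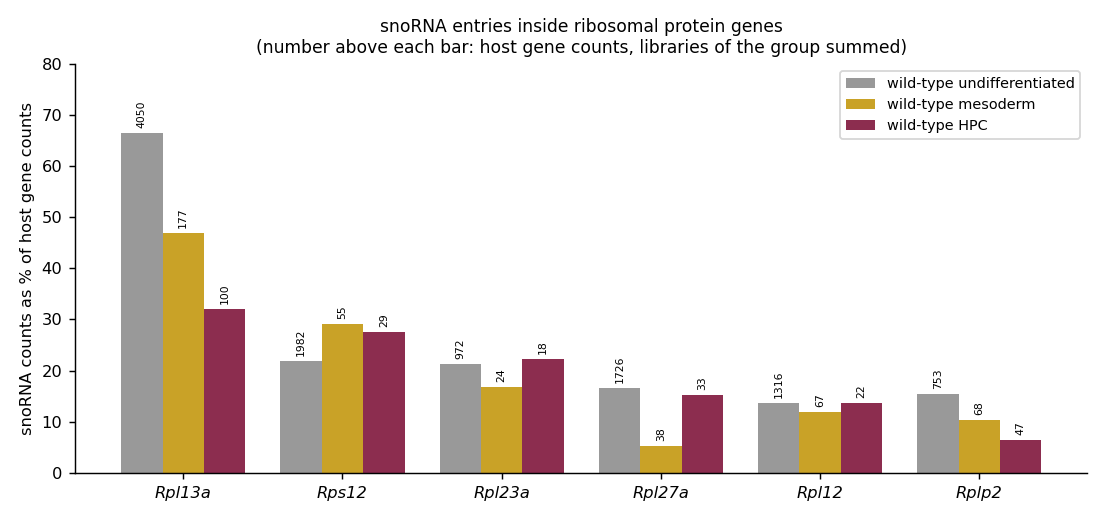
Counts in snoRNA rows as a percent of the counts of their host gene (bars, from 0) in the 3 wild-type groups, for the 6 hosts with the highest percent shown, with the host counts above each bar. Rpl13a stands above the other hosts in all 3 groups, at 66.5%, 46.9% and 32%.

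Some ribosomal proteins are encoded by pairs of related genes, and the paralogs differed in whether they were counted at all. Rpl7l1, a relative of Rpl7, held 39.3% to 50.2% of the counts of the pair in the 7 groups. Rpl22l1, which can stand in for Rpl22, held at most 35.6%, on 10 to 258 counts a group, and was the 1 of 7 tested paralogs (14.3%, near the 13.7% of all genes) that fell from undifferentiated cells to mesoderm (log2 fold change -1.88 ± 0.58, edgeR adjusted p = 0.0337). Rps4l held 22.2% to 38% beside the X-linked Rps4x, Rps27l 29.4% to 68.8% beside Rps27 and Rpl36al 38.5% to 75% beside Rpl36a, these last pairs on as few as 4 to 6 counts a gene and group. Rps4l lies opposite Tmtc1, and the strand setting of the counting is not given in the sources used here, so its count can hold reads of that gene. Rpl10l and Rpl39l, which are best known from male germ cells, had 21 and 16 and 5 and 18 counts in the undifferentiated libraries and 0 in all 21 others. Rpl3l, a paralog of striated muscle, had at most 2 counts in a library.

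Among the other copies, Rps27 and Rps27rt overlap and had the same counts in every library, so they are not separate measurements. Whether the copies below share reads with the gene of their pair was not tested. Rpl37rt held 12.7% of the counts of its pair with Rpl37 in undifferentiated cells and 42.3% to 62.2% in the other groups. Rpl32l, a copy inside Map7, held 1.76% to 15.8% of the counts of its pair with Rpl32. In all, 19 of the 89 genes overlapped other entries, such as Rpl31 (Tbc1d8), Rpl5 (Dipk1a) and Rpl32 (Cand2), and their values may include reads of those genes.

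The first comparison across genes asked what changed from undifferentiated cells to wild-type mesoderm. Values per gene are TMM-normalised counts scaled to library size (CPM), and a gene was called when its adjusted p was under 0.05 and its log2 fold change over 1 in size (edgeR quasi-likelihood test, Benjamini-Hochberg adjustment over all genes tested). The count filter took in the deeper undifferentiated libraries, so a gene could be tested on its counts there alone, which favours falls. Of the 89 genes, 29 averaged under 10 counts in wild-type mesoderm. Of 86 ribosomal protein genes with enough counts, 48 fell and 0 rose from undifferentiated cells to mesoderm, where 13.7% of all genes tested fell and 10.7% rose. Their median log2 fold change was -1.28, against -0.18 over all 12899 genes. It was -1.27 over the 84 of them with a mean of at least 20 counts over the libraries of both stages. That mean takes in the undifferentiated libraries too. Rpl36, with 122 and 55 counts there and 0, 4 and 3 in mesoderm, was kept. The limit therefore does not check the effect of the filter. In 76 of the 86 (88.4%) the mesoderm libraries all lay below both undifferentiated libraries, against 36.9% of all genes. Both subunits were represented, with 22 of 35 genes of the 40S and 26 of 51 of the 60S subunit called lower.

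Among the called genes, Rpl13a had 19.2 CPM in both undifferentiated libraries and 6.04, 5.57 and 5.33 in mesoderm. Its log2 fold change was -1.77 ± 0.23 (SE, edgeR adjusted p = 0.000344), and -1.19 with the snoRNA counts taken off. Rps12 had 9.58 and 9.08 in undifferentiated cells and 1.1, 2.95 and 1.86 in mesoderm, a fall of 2.32 ± 0.34 on the log2 scale (adjusted p = 0.000784). The groups did not overlap for either gene. Rpl35a, a 60S protein and a Diamond-Blackfan anemia gene, had 5.88 and 5 against 0.706, 1.15 and 1.21 (log2 fold change -2.43 ± 0.36, adjusted p = 0.000805). Rps9, which takes part in decoding fidelity, had 10.7 and 12.1 against 2.74, 4.42 and 3.15 (-1.75 ± 0.26, adjusted p = 0.000709). Rps18, of the 40S head, had 4.54 and 5.2 against 1.25, 1.8 and 1.21 (-1.82 ± 0.30, adjusted p = 0.00127). Each of these genes was lower in every mesoderm library.

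The stalk proteins did not pass in this comparison. Rplp0, which anchors the stalk to the 60S subunit, had a log2 fold change of -0.68 ± 0.35, Rplp1 of -1.02 ± 0.43 and Rplp2 of -0.67 ± 0.39 (edgeR adjusted p = 0.173, 0.0983 and 0.218). Rpl37rt was the only tested gene with a positive value (0.86 ± 0.45, adjusted p = 0.173). Rps23rg1 had 32 and 38 counts in the undifferentiated libraries and 0 in mesoderm, which against a floor of 3 counts per library makes it at least 1.15-fold lower. The count of 48 rested on few libraries: it was 13 without undifferentiated techRep1, 15 without techRep2, 28 without mesoderm B9.3 and 30 without mesoderm C8.1, and 21 with the libraries of a clone summed, where the 2 undifferentiated technical replicates count as 1 sample.

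The next comparison asked what changed from mesoderm to HPCs in wild-type cells. The genes tested were those of the same filter, and 55 of the 89 averaged under 10 counts in wild-type HPCs, which limits calls. Of 86 genes, 3 fell and 0 rose, where 12.5% of all genes tested fell and 10.8% rose, so calls were rarer than over all genes. The median log2 fold change was -0.55, against -0.01 over all genes, and 12 of the 86 values were positive (14%, against 47.8%). Unadjusted p was under 0.05 for 21 genes (24.4%, against 38.2% of all genes). All HPC libraries lay below all mesoderm libraries in 11 of the 86 (12.8%, against 16.6% of all genes) and above them in 1 (1.16%, against 16.3%).

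Rps15a, a 40S protein and a Diamond-Blackfan anemia gene, had 8.39, 10.5 and 9.04 CPM in mesoderm and 3.36, 7.24, 4.52 and 1.91 in HPCs (log2 fold change -1.16 ± 0.34, adjusted p = 0.0256, edgeR). Rps10, at the mRNA entry side of the 40S head and a Diamond-Blackfan anemia gene, had 1.18, 2.78 and 1.86 against 0.579, 1.21, 0.531 and 0.336 (-1.56 ± 0.44, adjusted p = 0.0211). Rpl38, whose mutation in mice disturbs the axial skeleton, had 1.49, 3.44 and 2.5 against 0.926, 1.38, 0.797 and 0.336 (-1.53 ± 0.43, adjusted p = 0.0207). For Rps15a and Rpl38 no HPC library reached the lowest mesoderm library, whereas for Rps10 the B9.3-2 HPC library lay above mesoderm B9.3. These values rest on 3 to 8 counts a library in HPCs for Rps10 and Rpl38 and on 17 to 42 for Rps15a.

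None of the 3 calls was stable to the loss of a library. No gene was called without mesoderm C6.1, without mesoderm C8.1 or without HPC C8.1, and Rps10 was also lost without HPC C6.1. In the other direction 10 genes were called without mesoderm B9.3, 8 without HPC B9.3-2 and 6, of which 5 were lower, without HPC B9.3. In the 3 fits with no call, an unadjusted p under 0.05 was reached by 11, 9 and 12 genes. With all libraries DESeq2 called 7. Rpl13a (-0.78 ± 0.21, adjusted p = 0.018) and Rps3 (-0.68 ± 0.21, adjusted p = 0.0292) passed on p but not on the size of the change.

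The same step was tested in the knockout lines, in a fit of the 21 mesoderm and HPC libraries, whose normalised values are on their own scale. From mesoderm to HPCs, 12 of 67 genes fell in P1-CTCF-KO, where 16.1% of all genes tested fell, and 11 of 67 fell in P2-CTCF-KO, where 11.7% fell. None rose in either, where 16.6% and 16.5% of all genes rose. The median log2 fold change of the 67 genes was -0.52 in P1-CTCF-KO, against -0.07 over all genes, and -0.79 in P2-CTCF-KO, against 0.09. All HPC libraries lay below all mesoderm libraries in 31 of the 67 genes (46.3%, against 29.6% of all genes) in P1-CTCF-KO and in 25 (37.3%, against 14.9%) in P2-CTCF-KO. The wild-type share given above (12.8%, against 16.6%) was below that of all genes. It was taken over 86 genes, from a filter that included the undifferentiated libraries, and so not over the same genes as here.

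Cell type markers moved in the same step. Summed CPM of the remaining counts of 6 erythroid markers lay between 0.468 and 4.03 in wild-type mesoderm and between 617.4 and 1394.2 in HPCs. In P1-CTCF-KO the range was 0.929 to 1.41 in mesoderm and 417.3 to 1733.4 in HPCs, and in P2-CTCF-KO all 6 were at 0 in mesoderm and summed to 285.9 to 2143.4 in HPCs. All 6 were called higher in each genotype. Endothelial markers ran from 10.7 to 694.0 in wild-type mesoderm and from 93.8 to 167.2 in HPCs, with 2 of 4 tested called lower (edgeR). In P1-CTCF-KO they ran from 60.7 to 351.1 and from 92.5 to 121.1, with none called and Emcn at 0 in HPCs. In P2-CTCF-KO they ran from 4.79 to 7.9, with Emcn at 0, and from 82.6 to 586.9, with all 4 tested called higher. The part of these markers' cells in the ribosomal protein values of this step was not tested.

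In P1-CTCF-KO, Rps15a had 6.21, 7.09 and 5.97 CPM in mesoderm and 1.38, 2.6 and 1.57 in HPCs (log2 fold change -1.76 ± 0.36, edgeR adjusted p = 0.00105). Rpsa, a 40S protein first described as a laminin receptor, had 3.37, 3.72 and 3.51 against 1.38, 1.58 and 1.36 (-1.28 ± 0.31, adjusted p = 0.00346). Rpl23, at the face of the 60S subunit that meets the 40S, had 1.22, 2.15 and 1.67 against 0.689, 0.651 and 0.419 (-1.54 ± 0.40, adjusted p = 0.00525). Mesoderm and HPC libraries did not overlap for any of these genes. Rps18 (-1.42 ± 0.44, adjusted p = 0.0146) and Rps20 (-1.32 ± 0.42, adjusted p = 0.0169), both of the 40S head, came next. The others called were Rpl5, Rpl24, Rpl3, Rps27a, Rps10, Rpl35a and Rpl26, with log2 fold changes from -1.10 (Rpl26) to -1.67 (Rps27a).

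In P2-CTCF-KO, Rps10 had 1.44, 1.96 and 1.7 in mesoderm and 0.243 to 0.822 in the 5 HPC libraries, without overlap (-1.83 ± 0.36, adjusted p = 0.000637, edgeR). Rpl5, which with Rpl11 and 5S rRNA forms a particle that can bind Mdm2, had 2.93, 3.93 and 2.65 against 1.04, 0.972, 1.07, 2.05 and 2.19 (-1.12 ± 0.29, adjusted p = 0.00546). The 2.05 and 2.19 of the D2.1-2 and E9.1 HPC libraries lay near the mesoderm values but below them. Rps15a had 6.7, 8.96 and 7.13 against 2.55 to 4.84 (-1.02 ± 0.29, adjusted p = 0.0102). Rps16, of the 40S head, was also called (-1.21 ± 0.39, adjusted p = 0.02), as were Rpl3, Rps6, the substrate of the S6 kinases, Rpl31, Rpl27 and Rpl35a.

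Over the 3 genotypes, 19 genes were called lower in at least 1 step, and 2, Rps10 and Rps15a, in all 3. The matching counts over all genes were not made, so these 2 numbers have no background. In the single steps 3.49% (wild-type), 17.9% (P1-CTCF-KO) and 16.4% (P2-CTCF-KO) were called lower. The shares of all genes were 12.5%, 16.1% and 11.7%. The stalk gene Rplp1 had the flattest step among the stalk proteins, with log2 fold changes of 0.34 ± 0.43 in wild-type, 0.08 ± 0.37 in P1-CTCF-KO and 0.02 ± 0.31 in P2-CTCF-KO (edgeR adjusted p = 0.609, 0.888 and 0.962). The numbers of calls moved with single libraries. In P1-CTCF-KO there were 4 without mesoderm E7.2, 5 without HPC E7.1 and 6 without HPC E9.1, the call of Rps20 was lost without each of these, and that of Rps18 without HPC E9.1. In P2-CTCF-KO there were 3 without mesoderm D2.1, 7 without mesoderm E9.1, 5 without HPC D10.1 and 18 without HPC D2.1-2. Rpl5, Rps16 and Rps15a were lost without mesoderm D2.1, and Rps15a also without HPC D10.1 or HPC D10.1-2. Rps15a was lost as well with the libraries of a clone summed, so its P2-CTCF-KO call did not hold with clones as samples. With the clone as a replicate block, pairing the libraries of a clone, there were 6 in P2-CTCF-KO in place of 11.

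**Figure D3:**
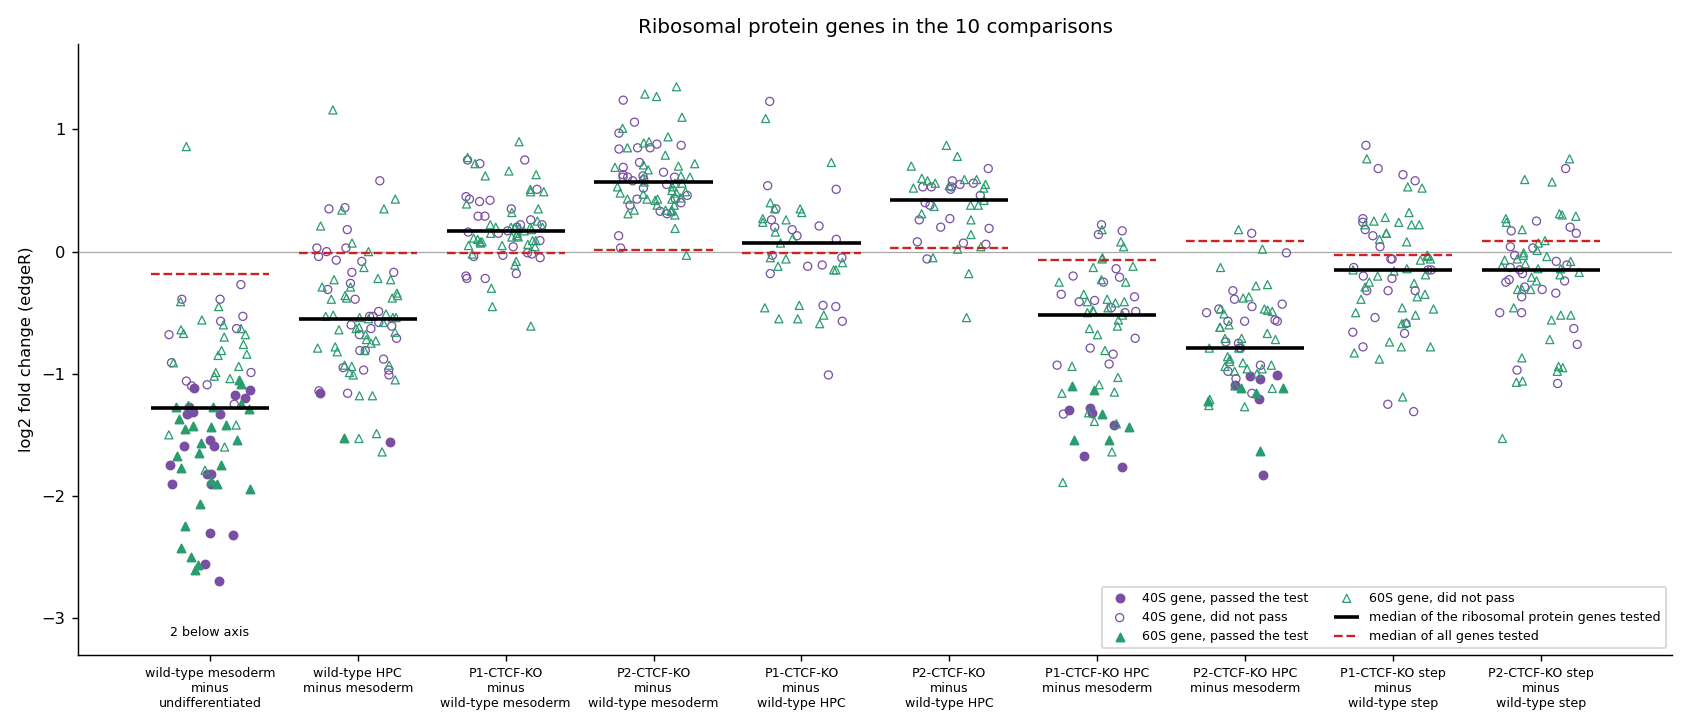
Log2 fold changes (edgeR) of the ribosomal protein genes tested in each of the 10 comparisons, with 40S genes as circles and 60S genes as triangles, filled where called; 2 genes of the first comparison lie under the axis. The median of these genes (black line) lies below the median of all genes (dashed line) in the stage comparisons, at -1.28 against -0.18 in the first, and above it in P2-CTCF-KO mesoderm, at 0.57 against 0.01.

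Whether the step differed between knockout and wild-type was tested by the interaction. For P1-CTCF-KO, edgeR called 0 of 67 genes (0% of all genes), with an unadjusted p under 0.05 in 3 of 67 (3.34% of all genes) and 0 calls by DESeq2. For P2-CTCF-KO it called 0 of 67 (0.0218% of all genes), with an unadjusted p under 0.05 in 1 of 67 (7.01% of all genes) and 0 calls by DESeq2. The median difference of the step was -0.15 in both, against -0.03 and 0.09 over all genes. It ranged from -0.29 to 0.13 for P1-CTCF-KO and from -0.31 to 0.06 for P2-CTCF-KO when single libraries were left out, and was positive in both without wild-type HPC B9.3-2 (0.13 and 0.06) and in P1-CTCF-KO without wild-type mesoderm B9.3 (0.05). A different step in the knockouts was thus not detectable at this depth.

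**Figure D4:**
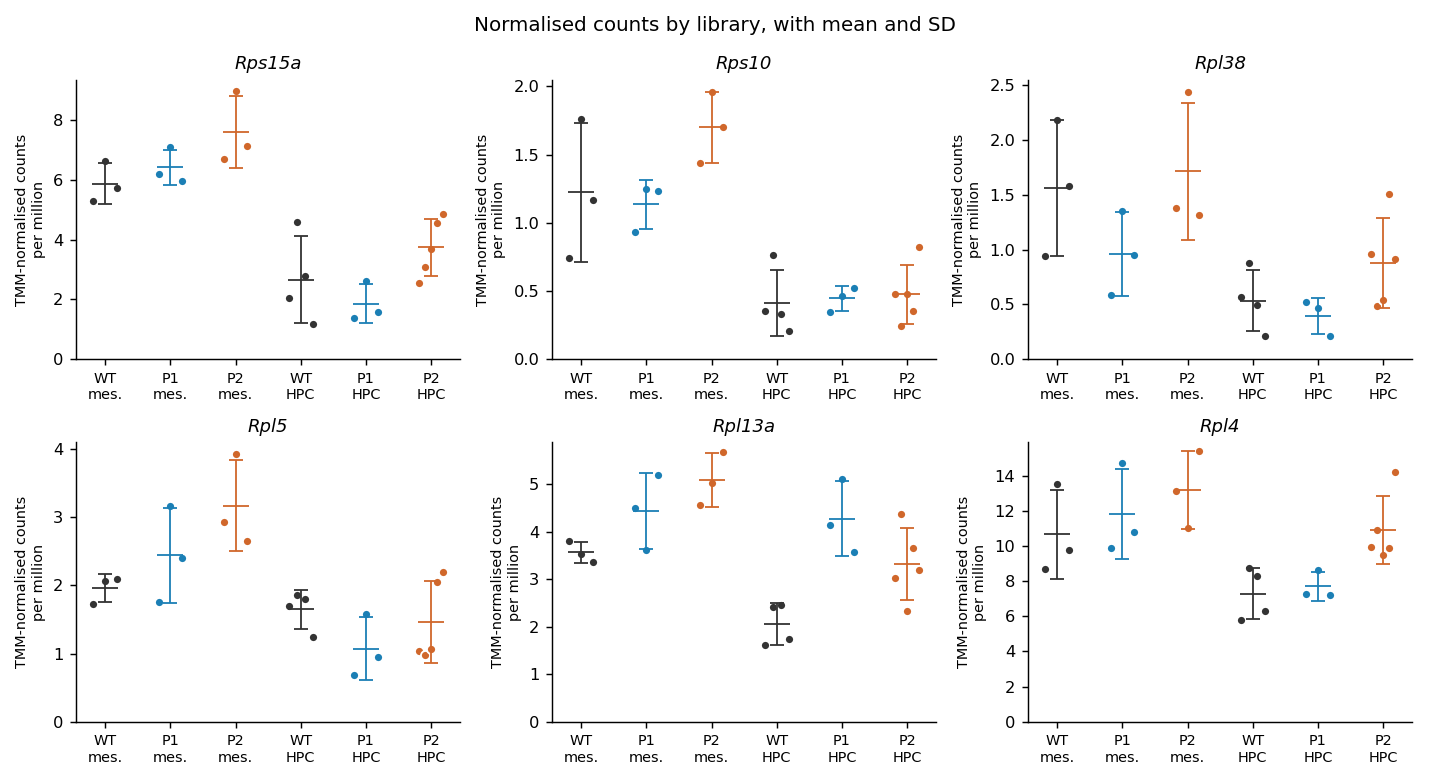
TMM-normalised CPM in each mesoderm and HPC library (points), with the mean and SD of each group, for 6 ribosomal protein genes. Rps15a and Rps10 are lower in HPCs in all 3 genotypes, and Rpl13a in wild-type HPCs, at 1.62 to 2.46, lies below every P1-CTCF-KO HPC library. For Rpl13a, wild-type and P2-CTCF-KO HPCs overlap.

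The genotypes were next compared within mesoderm. In P2-CTCF-KO against wild-type mesoderm, edgeR called 0 of 73 genes (0.0342% of all genes), and DESeq2 called 0. An unadjusted p under 0.05 was reached by 28 of 73 (38.4%), against 16.0% of all genes, and by 18 with DESeq2. The values leaned to one side: 72 of the 73 were positive (98.6%, against 50.8% of all genes), with a median log2 fold change of 0.57 against 0.01. In 26 genes (35.6%) all P2-CTCF-KO libraries lay above all wild-type libraries, against 9.22% of all genes. The median stayed between 0.43 and 0.71 when single libraries were left out. The count of 28 was 13 without wild-type mesoderm B9.3 and 18 without P2-CTCF-KO mesoderm E9.1. Genes are not independent replicates, and no single gene passed.

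The smallest adjusted p in this comparison was 0.13, for Rpl35a, chosen here after its values were seen. It had 0.374, 0.616 and 0.638 CPM in wild-type mesoderm and 1.42, 1.16 and 1.34 in P2-CTCF-KO mesoderm, on 7 to 28 counts a library, a log2 fold change of 1.29 ± 0.29 (edgeR). Rpl14 had 0.25, 0.44 and 0.468 against 1.06, 0.883 and 0.968 (1.35 ± 0.34, adjusted p = 0.138), and Rps4x 0.874, 1.32 and 1.15 against 2.03, 2.04 and 2.37 (0.97 ± 0.25, adjusted p = 0.138). The groups did not overlap for these genes. The more deeply counted Rpl4, with 130 to 245 counts a library, had 7.32, 11.4 and 8.17 against 11.1, 9.51 and 13.2, and overlapped.

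The mesoderm libraries also differed in cell type markers. Mesoderm markers summed to 204.3 to 392.1 CPM of the remaining counts in wild-type and 496.0 to 546.9 in P2-CTCF-KO, with all 6 detected in both. Hematopoietic progenitor markers summed to 84.4 to 230.8 against 28.8 to 76.4, with Spi1 at 0 in P2-CTCF-KO, and endothelial markers to 10.7 to 694.0 against 4.79 to 7.9, with Emcn at 0. Pluripotency markers summed to 9.72 to 24.7 against 31.8 to 62.3, and the undifferentiated libraries were those with the highest ribosomal protein share. The part of these markers' cells in the ribosomal protein values was not tested.

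In P1-CTCF-KO against wild-type mesoderm, edgeR and DESeq2 each called 0 of 73 genes (0% of all genes). An unadjusted p under 0.05 was reached by 4 of 73 (5.48%), against 1.91% of all genes. The median log2 fold change was 0.17, against -0.01, and 58 of the 73 values were positive. DESeq2 gave 2 with an unadjusted p under 0.05. Rpl35a (0.90 ± 0.29), Rpl14 (0.77 ± 0.34), Rps4x (0.75 ± 0.24) and Rps18 (0.75 ± 0.29) were the 4, each with an edgeR adjusted p of 1. Both genotype comparisons use the same 3 wild-type libraries.

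In HPCs, only 43 of the 89 genes had enough counts. In P1-CTCF-KO against wild-type HPCs, edgeR and DESeq2 called 0 of 43 (0% of all genes), and 3 of 43 had an unadjusted p under 0.05 (3.50% of all genes). In P2-CTCF-KO both called 0 of 43 (0% of all genes), and 6 of 43 (14%) had an unadjusted p under 0.05, against 1.95% of all genes. DESeq2 gave 3 and 6 at an unadjusted p under 0.05. The P1-CTCF-KO count was 1 without P1-CTCF-KO HPC E7.1, and the P2-CTCF-KO count was 15 without wild-type HPC B9.3-2 and 3 without wild-type HPC C8.1. The P2-CTCF-KO median was 0.42, against 0.03, with 39 of 43 values positive (90.7%, against 54.3%), and the P1-CTCF-KO median was 0.07, against -0.01. The latter was negative without wild-type HPC B9.3 (-0.05), C6.1 (-0.03) or C8.1 (-0.08) and without P1-CTCF-KO HPC E7.2 (-0.06). Rpl4 had 6.73, 9.73, 9.03 and 7.14 in wild-type HPCs and 11.4, 12, 11.2, 11.1 and 15.6 in P2-CTCF-KO HPCs, without overlap, a log2 fold change of 0.59 ± 0.17 (adjusted p = 1, edgeR).

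In the fit of the HPC libraries alone, Rpl13a was higher in every knockout library than in every wild-type one, without passing the test. It had 1.89, 2.68, 2.68 and 1.96 in wild-type HPCs, 4.77, 5.68 and 4.15 in P1-CTCF-KO (1.09 ± 0.24, edgeR adjusted p = 0.91) and 3.48, 4.81, 2.75, 4.08 and 3.52 in P2-CTCF-KO (0.70 ± 0.21, adjusted p = 1). It was named after its values were seen, and its counts can include snoRNA reads. Of the 43 genes, all P1-CTCF-KO libraries lay above all wild-type ones in 3 (6.98%, against 2.79% of all genes) and below them in 1 (2.33%, against 4.15%). In P2-CTCF-KO this held for 2 genes above (4.65%, against 0.431%) and 0 below (against 0.404%).

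The ribosomal proteins mutated in Diamond-Blackfan anemia were counted as a list of their own. From undifferentiated cells to mesoderm 13 of 19 fell (68.4%, against 13.7% of all genes), with Rpl35a, Rpl5, Rps24 and Rps28 (log2 fold change -2.70 ± 0.62, edgeR adjusted p = 0.00811) leading. In the step to HPCs, 2 of 19 fell in wild-type (10.5%, against 12.5%, which is not above the share of all genes), 5 of 16 in P1-CTCF-KO (31.2%, against 16.1%) and 7 of 16 in P2-CTCF-KO (43.8%, against 11.7%), and none rose. Their median log2 fold changes were -0.54, -1.02 and -1.03, beside -0.55, -0.52 and -0.79 for all ribosomal protein genes tested, and the difference between these medians was not tested.

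Genes that serve the ribosome without being part of it were also counted. Of the ribosome biogenesis factors, 7 of 34 fell from undifferentiated cells to mesoderm (20.6%, against 13.7% of all genes), among them Rrn3, an initiation factor of RNA polymerase I (-2.02 ± 0.20, adjusted p = 0.000133, edgeR). From mesoderm to HPCs 5 of 34 fell in wild-type (14.7%, near the 12.5% of all genes), 16 of 32 in P1-CTCF-KO (50%, against 16.1%) and 10 of 32 in P2-CTCF-KO (31.2%, against 11.7%), and none rose. Rrp1b fell in all 3 (-1.91 ± 0.24, -2.48 ± 0.39 and -1.83 ± 0.30, adjusted p = 0.000182, 0.000113 and 0.000144). In the same step Nop56 and Nolc1, nucleolar proteins of snoRNA assembly, fell in wild-type by 1.22 ± 0.28 and 1.17 ± 0.28 on the log2 scale (adjusted p = 0.00766 and 0.0085).

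Of 19 translation factors that share the pyrimidine tract, 5 fell (26.3%, against 13.7% of all genes) and 2 rose (10.5%, near the 10.7% of all genes) from undifferentiated cells to mesoderm. On the way to HPCs, 1 fell in wild-type (5.26%, against 12.5%), 4 in P1-CTCF-KO (21.1%, against 16.1%) and 3 in P2-CTCF-KO (15.8%, against 11.7%), and none rose. Npm1, the nucleolar chaperone, fell in all 3 of these steps (-1.11 ± 0.21, -1.25 ± 0.29 and -1.05 ± 0.24, edgeR adjusted p = 0.00218, 0.00222 and 0.00234). Of 13 growth regulators, 2 fell and 1 rose to mesoderm, 2 fell to wild-type HPCs, and 2 fell and 1 rose to HPCs in each knockout. In each of these comparisons the 2 genes that fell were 15.4% of the list, near the share of all genes. Myc, which drives ribosome synthesis, rose to mesoderm (1.52 ± 0.39, adjusted p = 0.0145) and fell to HPCs in all 3 genotypes, by 1.19 ± 0.34 in wild-type, 2.31 ± 0.55 in P1-CTCF-KO and 1.32 ± 0.43 in P2-CTCF-KO on the log2 scale (adjusted p = 0.0226, 0.00289 and 0.0215). Mycn fell to mesoderm (-1.84 ± 0.35, adjusted p = 0.00312) and again to wild-type HPCs (-1.99 ± 0.38, adjusted p = 0.00251). Of the ubiquitin fusions and ribosome-bound factors, 3 genes, Rps27a fell to mesoderm (-1.13 ± 0.36, adjusted p = 0.0353) and in the P1-CTCF-KO step.

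Mitochondrial ribosomal protein genes, which serve the separate ribosome of the mitochondrion, were counted for comparison. From undifferentiated cells to mesoderm 6 of 76 fell (7.89%, against 13.7% of all genes) and 1 rose (1.32%, against 10.7%), with a median of -0.44. From mesoderm to HPCs, 1 fell and 3 rose of 76 in wild-type (median 0.14), 2 fell and 1 rose of 32 in P1-CTCF-KO (median -0.35) and 1 fell and 1 rose of 32 in P2-CTCF-KO (median -0.02). The shares that fell were 1.32%, 6.25% and 3.12%, below the 12.5%, 16.1% and 11.7% of all genes, and those that rose were 3.95%, 3.12% and 3.12%, below 10.8%, 16.6% and 16.5%. In P1-CTCF-KO against wild-type HPCs their median was -0.31, beside 0.07 for the cytoplasmic genes. In P2-CTCF-KO mesoderm their median was 0.15, with 23 of 34 values positive and 0 called by edgeR (2 with an unadjusted p under 0.05).

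The start sites of the cytoplasmic ribosomal protein genes were compared with open chromatin. Peaks of ATAC-seq, which marks accessible DNA, were deposited for wild-type mesoderm (76766 peaks from 4 merged libraries) and HPCs (29037 peaks from 2 merged libraries), without replicates. In mesoderm 80 of the 89 start sites had a peak within 500 bp (89.9%), against 51.8% of 24961 single-locus genes. In HPCs it was 66 (74.2%, against 34.7%). The mitochondrial ribosomal protein genes had 85.9% and 55.1%. The peaks covered the start site itself in 65 genes in mesoderm and in 42 in HPCs, and the median offset of their centres from it was -43.5 bp in mesoderm and -55.0 bp in HPCs, where negative is upstream.

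Over the 2 stages, 65 genes had a peak in both (73%, against 33.8% of all single-locus genes) and 8 in neither (8.99%, against 47.2%). A peak in mesoderm alone was found at 15 (16.9%, against 18.1%) and in HPCs alone at 1, Rpl18 (1.12%, against 0.925%). The shares with a peak in a single stage were thus near those of all genes. Those in mesoderm alone included Rps10, Rpl4, Rpl8, Rpl23, Rps18 and Rpl35a. The HPC list was the shorter one, and the difference in the number of merged libraries cannot be told apart from the stage. Those in neither included Rpl22, Rps4x and 5 further copies or paralogs (Rpl37rt, Rpl32l, Rpl10l, Rpl39l and Rpl3l).

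CTCF, the insulator protein whose motifs were deleted at Runx1, had a peak within 500 bp of 24 start sites (27%), against 9.11% of all single-locus genes and 19.2% of the mitochondrial ribosomal protein genes. These peaks (44513 in all) came from 416B cells, a mouse hematopoietic progenitor line, and not from the cells of the RNA libraries. The peak covered the start site in 13 genes, among them Rpl5, Rpl11, Rplp0 and Rpl38. All 24 peak centres lay upstream of the start site, at a median offset of -112.75 bp, and 22 of the 24 genes also had an ATAC-seq peak in mesoderm.

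**Figure D5:**
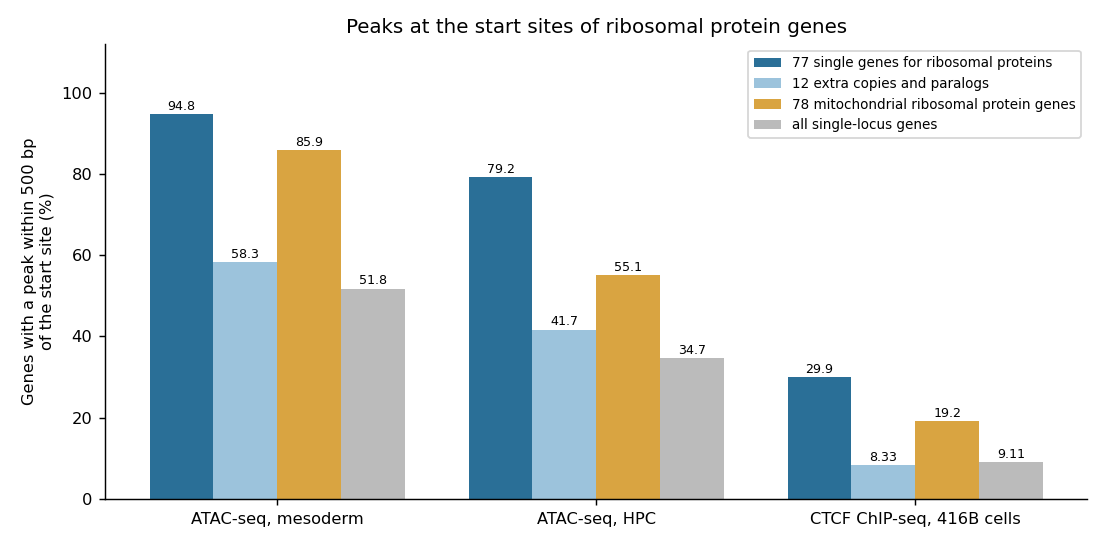
Percent of genes with a peak within 500 bp of the start site (bars, from 0) for the ATAC-seq lists of mesoderm and HPCs and the CTCF list of 416B cells, for 77 single ribosomal protein genes, 12 further copies and paralogs, 78 mitochondrial ribosomal protein genes and all single-locus genes. The single ribosomal protein genes stand highest in each list, at 94.8%, 79.2% and 29.9%.

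Promoters were read from 250 bases before to 50 after the start site (mm9) for all 89 genes and for 24957 single-locus genes in all. The ETS and YY1 motifs were searched on both strands. The ETS motif CCGGAAG was in 33 of the 89 windows (37.1%, against 10.9% of all windows and 35.9% of the mitochondrial ribosomal protein genes). The YY1 motif AAGATGGC was in 8 (8.99%, against 3.07% and 16.7%). A TATAAA on the sense strand between 40 and 15 bases before the start site was in 1 (1.12%, against 2.54%). On the sense strand, a run of 8 or more C or T that began with C within 20 bases of the start site was in 38 (42.7%, against 14.8%, and 16.7% of the mitochondrial genes). A match is a description of these letters and not of binding.

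The promoters of 4 genes are shown, those of Rps10, Rps15a and Rpl38, which were called in wild-type HPCs, and of Rpl8, one of the 2 highest genes per kilobase. Each runs 5′ to 3′ on the strand of the gene from 120 bases before to 10 after the start site (mm9), with the motif in capitals.
Rps10 (chr17:27772180-27772309, minus strand): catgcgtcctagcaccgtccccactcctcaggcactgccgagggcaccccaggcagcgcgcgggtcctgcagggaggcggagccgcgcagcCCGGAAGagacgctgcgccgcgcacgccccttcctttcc
Rps15a (chr7:125259652-125259781, minus strand): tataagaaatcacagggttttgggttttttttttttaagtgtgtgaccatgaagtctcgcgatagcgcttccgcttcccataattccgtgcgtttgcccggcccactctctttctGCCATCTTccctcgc
Rpl38 (chr11:114529773-114529902, plus strand): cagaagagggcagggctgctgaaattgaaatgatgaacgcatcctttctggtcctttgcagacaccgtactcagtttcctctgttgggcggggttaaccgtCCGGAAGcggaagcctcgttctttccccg
Rpl8 (chr15:76734380-76734509, plus strand): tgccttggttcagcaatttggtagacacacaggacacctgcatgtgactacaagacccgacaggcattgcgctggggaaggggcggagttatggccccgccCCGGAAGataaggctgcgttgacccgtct
The ETS motif began 29 bases before the start site in Rps10 and 19 bases before it in both Rpl38 and Rpl8. In Rps15a the YY1 motif was on the opposite strand and began 5 bases before the start site. An ATAC-seq peak of mesoderm covered the start site in Rps10, Rps15a and Rpl8, whereas in HPCs Rps15a had a peak 152 bp away and Rps10 and Rpl8 had none within 500 bp. At Rpl38 the ATAC-seq peaks lay 499 bp (mesoderm) and 468 bp (HPCs) away and a CTCF peak of 416B cells covered the start site.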

How the data were processed

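Poly(A)-minus RNA-seq was made from 23 libraries of 7 groups, taken from the labels. The authors deposited raw counts per gene, assigned with featureCounts over exons and introns to reads aligned by STAR (mm9) after picard had taken out duplicates. Removal of duplicates can lower the counts of short, abundant genes. The annotation and strand setting are not given in the sources used here. ATAC-seq peaks (merged wild-type libraries, for which the study's methods name a line with a reporter transgene) and CTCF peaks (416B cells, MACS2 against input) were used by position only. The members and gene lists were chosen with earlier results of these data known.

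Counts were tested on the whole table in R 4.3.3 with edgeR 4.0.16 (TMM, filterByExpr with a minimum count of 10, glmQLFTest) in 4 fits giving 10 comparisons: wild-type stages, genotypes within mesoderm, genotypes within HPCs, and the step in the knockouts with its interaction. Calls needed an adjusted p under 0.05 and a log2 fold change over 1 in size. The wild-type stage, mesoderm and HPC fits were checked on simulated counts, each in a single comparison. The fit of the knockout steps and interactions was not. DESeq2 1.42.0, other size factors, filters, entries left out, summed clones, and leaving out each library were alternatives. Shares were compared by 2-sided exact permutation tests (SciPy 1.17.1), and intervals are Wilson binomial ones at 95%, for counting error only. Named genes were up to 5 called genes a comparison with the smallest adjusted p, the 5 highest and lowest per kilobase, the paralogs, and the 5 with the largest snoRNA rows relative to the host row. Values of some genes that this rule takes in are not reported here. Sequences come from the mm9 genome.

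Mesoderm and HPC libraries of the same clone share that clone's line, which gives the pairing used as a replicate block. Deviations of a clone's mesoderm and HPC libraries from their group means correlated at -0.0691 to 0.188 over 9170 genes.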

Additional observations from a re-analysis of the deposited data

Results flagged for a closer look

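Single values that stand apart were looked for in wild-type HPCs (4 libraries) and P2-CTCF-KO HPCs (5 libraries). Of 22 sets of values examined, shares and named genes in these groups, 2 held such a value, and chance gives about 1 in 20. The sets come from the same libraries and are not independent. Rpl5 in wild-type HPC C8.1 had 1.41 normalised CPM, where the other 3 libraries had 1.97, 2.07 and 1.97, so that its gap to the nearest was 0.847 of the range. Rpsa in P2-CTCF-KO HPC D2.1-2 had 4.48, where the other 4 had 2.01 to 2.61 (gap 0.758 of the range). D2.1-2 was also the library without which 18 genes in place of 11 were called lower in the P2-CTCF-KO step.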

How the results depend on the processing

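Depth limits single genes: outside the undifferentiated libraries the 89 genes shared 452 to 4200 counts a library. Genes called from undifferentiated cells to mesoderm went from 48 to 21 with the libraries of a clone summed, and to between 13 and 52 with single libraries left out. Without rRNA, multi-locus and dominant entries the median of all genes in that comparison moved from -0.18 to -0.02 and that of the ribosomal protein genes from -1.28 to -1.24. From mesoderm to HPCs in wild-type, 3 became 7 with DESeq2, with no filter, and without rRNA, multi-locus and dominant entries (added after seeing the data), 6 with all 23 libraries in 1 fit, 5 with RLE size factors, with summed clones and with no limit on the fold change, and 0 to 10 with single libraries left out. In P1-CTCF-KO, 12 became 4 to 13 with single libraries left out. In P2-CTCF-KO, 11 became 18 with DESeq2 and without rRNA and multi-locus entries, 19 with RLE size factors, 17 also without dominant entries, 21 with no limit on the fold change, 6 with the clone as replicate block, and 3 to 18 with single libraries left out. The block changed no other count by over 1.5 times. Apart from single libraries left out, medians of the fold changes kept their sign in 94 recomputed cases and turned in 1. In P1-CTCF-KO HPCs the median became -0.02 without rRNA and multi-locus entries and ran from -0.08 to 0.32 with single libraries left out. The medians of the differences of the step from wild-type ran from -0.29 to 0.13 (P1-CTCF-KO) and from -0.31 to 0.06 (P2-CTCF-KO). The difference in share between wild-type HPCs and mesoderm (-0.00494 percentage points) became 0.000575 with all counts as denominator and ran from -0.0165 to 0.00413 with single libraries left out. No genotype or interaction setting called a member. The cause of these changes was not tested.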

Other observations

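The genes with an ATAC-seq peak near the start site in mesoderm alone and those with a peak in both stages can be set side by side, as a description without a test. From mesoderm to HPCs the median log2 fold change was -0.61 over 15 genes with a peak in mesoderm alone and -0.58 over 65 genes with a peak in both in wild-type, -1.09 over 13 and -0.50 over 49 in P1-CTCF-KO, and -0.79 over 13 and -0.79 over 49 in P2-CTCF-KO. Genes with and without a CTCF peak of 416B cells near the start site had medians of -0.47 over 24 and -0.56 over 62 in wild-type.

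Limited to genes with a mean of at least 20 counts over the libraries compared, all 34 such ribosomal protein genes had a positive value in P2-CTCF-KO against wild-type mesoderm, with a median of 0.54. The share of all genes at this depth was not computed, and over all genes tested at any depth it was 50.8%. No ribosomal protein gene was called in this comparison. All these values rest on the same 3 P2-CTCF-KO and 3 wild-type libraries, so the genes are not independent replicates.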
